A study of Rattus norvegicus with 66 samples.

Results

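The genes described here are the 4 chloride cotransporters Slc12a2, Slc12a5, Slc12a4 and Slc12a7 and the 5 kinases Wnk1, Wnk2, Wnk3, Stk39 and Oxsr1 that act on them. They were taken by gene symbol from the count data, each symbol stood for 1 entry, and they make up 9 of the 37777 genes listed. RNA was sequenced from the dorsal hippocampus of 64 Long Evans rat pups (41 males and 23 females) on postnatal day (PND) 6, in 66 libraries with 10644138 to 86206550 counts each. The dams of the treated pups had eaten chow with Aroclor 1254, a mixture of polychlorinated biphenyls, or with bisphenol A from before mating until the pups were taken, or had received subcutaneous injections of the organophosphate insecticide chlorpyrifos while pregnant and lactating. The study compared the offspring with unexposed controls and looked at the Slc12a5/Slc12a2 ratio in both sexes.

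Male groups were feeding controls (CONF, 4 pups), injection controls (CONSC, 5), Aroclor 1254 at 0.5 mg/kg (Aro0.5, 4) and 5 mg/kg (Aro5, 6), bisphenol A at 0.5 mg/kg (BPA0.5, 4) and 5 mg/kg (BPA5, 7), and chlorpyrifos at 1 mg/kg (CPF1, 4) and 3 mg/kg (CPF3, 7). Female groups were CONF (5), CONSC (5), Aro5 (5), BPA5 (4) and CPF3 (4). The labels name saline as the injection vehicle of CONSC and the methods name DMSO. The 64 pups came from 44 litters, and 18 litters gave pups of both sexes, which the main tests between the sexes do not pair. Siblings stood within a group only in Aro5 males (6 pups from 5 litters) and Aro5 females (5 pups from 4). As the study did, CONF and CONSC pups of one sex were taken as 1 control group. Each level is a CPM value, the counts of a gene in every 1000000 counted for that pup. Transcript length is not part of CPM, and levels are therefore compared between pups and not between genes.

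NKCC1, the product of Slc12a2, carries chloride into cells with sodium and potassium. KCC2 (Slc12a5, restricted to neurons), KCC1 (Slc12a4) and KCC4 (Slc12a7) carry it out with potassium, and in immature neurons, where NKCC1 outweighs KCC2, GABA can depolarise. The WNK kinases (Wnk1, Wnk2, Wnk3) are sensitive to chloride and activate SPAK (Stk39) and OSR1 (Oxsr1), which phosphorylate the cotransporters, switching NKCC1 on and the KCCs off.

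All 9 genes were matched to promoter windows in RefSeq (build GRCr8), which lie on chromosomes 18 (Slc12a2), 3 (Slc12a5 and Stk39), 19 (Slc12a4), 1 (Slc12a7), 4 (Wnk1), 17 (Wnk2), X (Wnk3) and 8 (Oxsr1). The 2 transporters of the ratio are shown, because their levels ran in opposite directions across the pups. The stretches lie on the plus strand before the start of the gene, at chr3:174115583-174115832 for Slc12a5 and chr18:53546083-53546262 for Slc12a2, and capitals mark the GC box GGGCGG, searched on both strands.
Slc12a5: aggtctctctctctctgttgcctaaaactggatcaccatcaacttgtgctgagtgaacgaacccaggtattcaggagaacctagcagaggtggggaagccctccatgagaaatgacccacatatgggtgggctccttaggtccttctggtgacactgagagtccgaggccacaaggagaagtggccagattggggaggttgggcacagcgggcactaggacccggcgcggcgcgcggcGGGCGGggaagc
Slc12a2: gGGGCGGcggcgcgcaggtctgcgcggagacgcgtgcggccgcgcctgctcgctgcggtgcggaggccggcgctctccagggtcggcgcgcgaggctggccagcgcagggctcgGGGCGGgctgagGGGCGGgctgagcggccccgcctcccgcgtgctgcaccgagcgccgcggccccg
Each window runs from 250 bases before its own start to 50 bases after it, and is longer than the stretch shown. The annotated Slc12a2 gene begins before the start used for its window, so its stretch was cut at 180 bases. The Slc12a2 window held 3 GC boxes and 80.7% G and C, and the Slc12a5 window held 1 and 61.3%, against a median of 51.7% over 33469 promoter windows. A GC box stood in 33.1% of these windows. The EGR motif GCGNGGGCG stood in 4.98% of all windows and the E-box CACGTG in 6.42%, and neither stood in the window of Slc12a5 or Slc12a2. The matches describe letters in a window, not sites in use.

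Before the comparisons, 3 facts on the libraries bear on all values. Library names took 2 forms, called A and B: 9 of the 10 control male libraries and all low-dose male libraries had form A, all high-dose male libraries had form B, 5 control female libraries had form A and 6 form B, and the form could not be read for the high-dose females. Control libraries of form A had 10777044 to 18045602 counts in males and 28071415 to 33399641 in females, so that depth did not overlap between the sexes. Control male N2-2y and control female N4-3x each had 1 library of either form, whose counts were summed. The libraries of N2-2y differed from each other more (chi-square of 22.43 per gene) than the median pair of different pups of a group (13.54), while those of N4-3x differed by 3.206, and the labels give N4-3x different dissection times in its libraries (12.09 and 11.55).

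The members moved by unequal amounts between the libraries of these pups. In N2-2y, Wnk2 stood at 105.6 CPM in library A and 192.6 CPM in library B. Slc12a5 stood at 151.3 CPM in A and 213.3 CPM in B, and Slc12a2 went the other way, with 83.7 CPM in A and 65.9 CPM in B. In N4-3x the corresponding values were 225.2 and 251.8 CPM for Wnk2, 259.4 and 257.7 CPM for Slc12a5, and 66.2 and 59.3 CPM for Slc12a2. In Wnk2 the gap between the libraries of N2-2y was about as wide as that between the means of control males (148.2 ± 14.8 CPM, SD, n = 9) and control females (236 ± 26.9 CPM, SD, n = 10). In Slc12a5 and Slc12a2 the gap between these libraries was wider than that between the sexes. Control males and females had means of 204.9 ± 20.3 and 252.8 ± 30.2 CPM (SD) of Slc12a5. For Slc12a2 they were 67.8 ± 9.42 and 58.8 ± 4.9 CPM (SD). How much of any sex difference below follows the library was not tested beyond the fits named.

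The dissected piece holds dorsal hippocampus with some lateral neocortex, as the methods describe. Of the markers searched, Otx2, a choroid plexus gene, was at 0 in 56 of 64 pups, and the rest were above 0 in every pup. The 5 hippocampal markers (Prox1, Wfs1, Zbtb20, Grik4, Neurod2) summed to 125.5 to 220.9 CPM in control females and 136.1 to 217.8 CPM in control males. Neocortex markers summed to 81.1 to 705.9 CPM in control females and 204.9 to 510.2 CPM in control males. Markers of thalamus (489.6 to 1170 CPM in control females, 502.2 to 1366 CPM in control males) and of choroid plexus (1551 to 4455 CPM and 1247 to 3857 CPM), where Slc12a2 is also made, varied widely within each sex. In bulk tissue, fewer cells of a type and less RNA per cell cannot be told apart.

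The members were abundant and most varied little, as the plot of CPM by group shows. Over all 64 pups Slc12a5 ranged from 122.7 to 382.1 CPM (median 218.4) and Slc12a2 from 42.9 to 94.5 CPM (median 63.9). Slc12a4 ranged from 25.1 to 49.5 CPM (median 37) and Slc12a7 from 9.76 to 24 CPM (median 15.4). Between pups, Oxsr1 was the steadiest member, with a coefficient of variation of 8.7%, and Wnk2 the most variable, with 27.8%. Wnk1 ranged from 112.7 to 174.6 CPM, Wnk3 from 23.3 to 59.9 CPM and Stk39 from 71.4 to 128.1 CPM. When the 13 groups were ranked by mean, the ranges of mean ± SD of all 12 pairs of neighbours met, for each of the 9 members. In Wnk2, the 5 female groups took the first 5 places, from CPF3 (258.2 ± 4.33 CPM, SD, n = 4) down to CONSC (229.7 ± 35.3 CPM, SD, n = 5), and BPA0.5 males the last (116.4 ± 28.7 CPM, SD, n = 4). In Slc12a5, BPA5 females were first (290.4 ± 38.7 CPM, SD, n = 4), the 5 female groups again took the first 5 places, and BPA0.5 males were last (175.1 ± 41.5 CPM, SD, n = 4). In Slc12a2 the order ran from CPF3 males (74.7 ± 9.36 CPM, SD, n = 7) to Aro5 females (51.1 ± 5.9 CPM, SD, n = 5), and Aro0.5 males (57.7 ± 9.5 CPM, SD, n = 4) stood among the female groups.

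**Figure D1:**
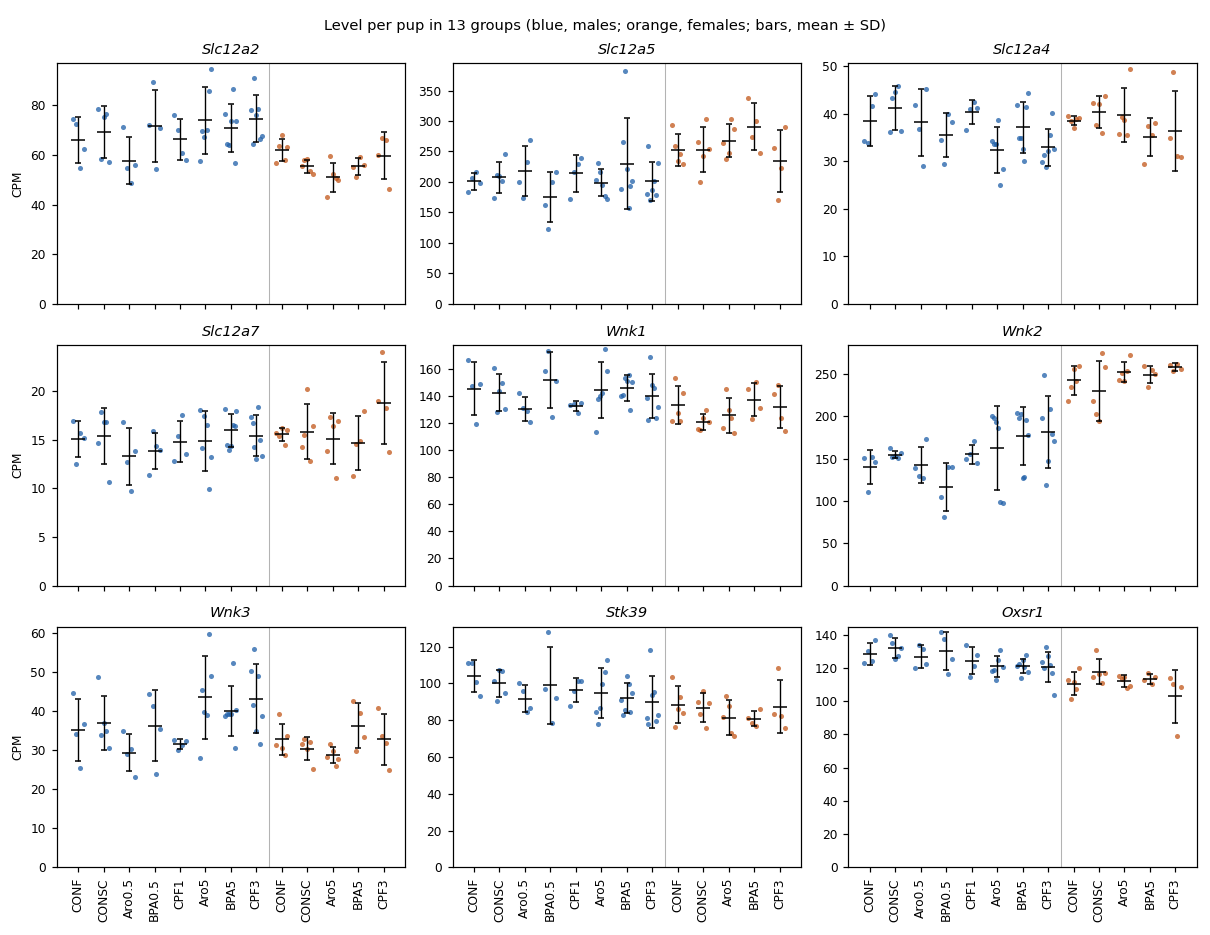
CPM (linear axis from 0) of each of the 9 genes in each of the 64 pups, by group, with males in blue on the left and females in orange on the right of the grey line. Bars are mean ± SD. For Wnk2, the 23 females lie between 194.6 and 274.8 CPM and the 41 males between 81.2 and 248.7 CPM.

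Females and males differed in several members, in opposite directions. Among controls, Wnk2 and Slc12a5, an extruder of chloride, were higher in females, and the kinases Stk39 and Oxsr1 were lower. Slc12a2, the importer, was lower in females by an amount that did not pass the test in controls alone. The differences were tested in 10 female and 9 male control pups, with route (CONF or CONSC) as a covariate, by edgeR's quasi-likelihood test on counts with Benjamini-Hochberg adjustment over 16324 genes, where an adjusted p under 0.05 counts as called. Of the 9 members 4 were called, against 29.6% of all genes, so that a called sex difference was common in these libraries. With library A alone for N2-2y the same 4 were called (31.0% of all genes), and without the filter on low counts Wnk2 and Slc12a5 alone were (15.7%). With only the pups dissected in the time window of the study 3 were called, Wnk2, Slc12a5 and Oxsr1 (23.4% of all genes).

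Wnk2 had the largest sex difference of the members in these controls. In control females it ranged from 194.6 to 274.8 CPM (median 238.6), and in control males from 110.5 to 162.1 CPM (median 151.9). The ranges did not overlap, which was so for 6.07% of the genes with a mean of 1 CPM or more and for no other member. The fitted difference was 0.71 on the log2 scale (SE 0.077), 1.64 times higher in females (edgeR's quasi-likelihood test, Benjamini-Hochberg adjusted p = 3.9e-07). With libraries of form A alone it was 0.56 (SE 0.089; edgeR's quasi-likelihood test, Benjamini-Hochberg adjusted p = 0.00057, with 11.4% of all genes called). Wnk2 also differed between the forms within control females, with 194.6 to 225.2 CPM in the 5 libraries of form A and 242.2 to 274.8 CPM in the 6 of form B. That difference, in a comparison added after the data had been seen, was 0.31 (SE 0.053; edgeR's quasi-likelihood test, Benjamini-Hochberg adjusted p = 0.013, with 1.43% of all genes called), and no other member was called in it. Pup N4-3x gave a library to each form there, which the fit did not pair. Route was not a covariate, with 2 CONF and 3 CONSC libraries in form A and 4 and 2 in form B.

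Slc12a5 ranged from 199.8 to 302.9 CPM in control females (median 249.9) and from 173.7 to 245.2 CPM in control males (median 206.3). The ranges overlapped. The fitted difference was 0.34 (SE 0.073), 1.27 times higher in females (edgeR's quasi-likelihood test, Benjamini-Hochberg adjusted p = 0.0011). In libraries of form A it was of like size, 0.32 (SE 0.1), and missed the threshold (edgeR's quasi-likelihood test, Benjamini-Hochberg adjusted p = 0.055). The form made little difference to Slc12a5 in control females, with medians of 259.4 CPM in A and 249.9 CPM in B. The libraries of control male N2-2y differed more, with 151.3 CPM in A and 213.3 CPM in B.

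Slc12a2 ranged from 52.3 to 68.1 CPM in control females (median 57.9) and from 54.9 to 78.5 CPM in control males (median 72.3). The ranges overlapped, and the fitted difference of -0.17 (SE 0.071) was not called (edgeR's quasi-likelihood test, Benjamini-Hochberg adjusted p = 0.074). With only the pups of the time window, which removes 3 CONSC males, it was -0.04 (SE 0.064). Those 3 males, dissected at 10.00, 10.15 and 10.15, held the highest values of Slc12a2 among control males (78.5, 75.2 and 76.6 CPM). The time of dissection and the value moved together here, and the part of the time was not tested.

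The other transporters differed little between control sexes. Slc12a4 differed by 0.03 (SE 0.06) and Slc12a7 by 0.08 (SE 0.089), neither called by edgeR's quasi-likelihood test. Among the kinases, Stk39 was lower in females, at -0.18 (SE 0.057; 75.6 to 103.6 CPM against 90.4 to 110.9 CPM in males; edgeR's quasi-likelihood test, Benjamini-Hochberg adjusted p = 0.02). Oxsr1 was also lower, at -0.15 (SE 0.044; 101.2 to 130.6 CPM against 122.8 to 139.8 CPM; edgeR's quasi-likelihood test, Benjamini-Hochberg adjusted p = 0.012). Both kinases overlapped between the sexes. Wnk1 at -0.15 (SE 0.061) and Wnk3 at -0.16 (SE 0.094) were not called (edgeR's quasi-likelihood test, Benjamini-Hochberg adjusted p = 0.078 and 0.2). Leaving out control male N4-7y brought both of them and Slc12a2 past the threshold (7 members called). Slc12a2 also passed without any 1 of the control males N5-2y, 11-4y and 8-4y or the control female N1-8x, and Wnk1 without the control female N4-3x. Without the filter on low counts neither Stk39 nor Oxsr1 was called (edgeR's quasi-likelihood test, Benjamini-Hochberg adjusted p = 0.061 for each). In the time window Stk39 was at -0.14 (SE 0.068) and not called (edgeR's quasi-likelihood test, Benjamini-Hochberg adjusted p = 0.14), and in libraries of form A it was at -0.19 (SE 0.083) and not called (edgeR's quasi-likelihood test, Benjamini-Hochberg adjusted p = 0.15), while Oxsr1 was called in both. The fit with litter as a block kept only the 14 control pups of the 7 litters with both sexes. There Oxsr1 was no longer called (-0.15, SE 0.063; edgeR's quasi-likelihood test, Benjamini-Hochberg adjusted p = 0.12, with 19.9% of all genes called). The block and the smaller set of pups cannot be told apart in it.

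Over the 52 pups of controls and high doses, treatment was a covariate. By the same test 7 of the 9 members were called, against 51.3% of all genes. With litter as a block, in the 38 pups of the 18 litters with both sexes, the same 7 were called (44.3%). The 52 pups include the controls above, and the libraries of the high-dose males all have form B. Wnk2 (0.63, SE 0.07) and Slc12a5 (0.35, SE 0.066) were higher in females. Slc12a2 (-0.30, SE 0.052), Wnk3 (-0.29, SE 0.071), Stk39 (-0.14, SE 0.042), Oxsr1 (-0.13, SE 0.029) and Wnk1 (-0.12, SE 0.04) were lower. Slc12a4 (0.10, SE 0.052) and Slc12a7 (0.08, SE 0.063) were not called. With only pups in the time window Slc12a4 (0.19, SE 0.058) and Slc12a7 (0.19, SE 0.067) were called higher in females and Wnk1 and Stk39 were not called, with 44.2% of all genes called.

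**Figure D2:**
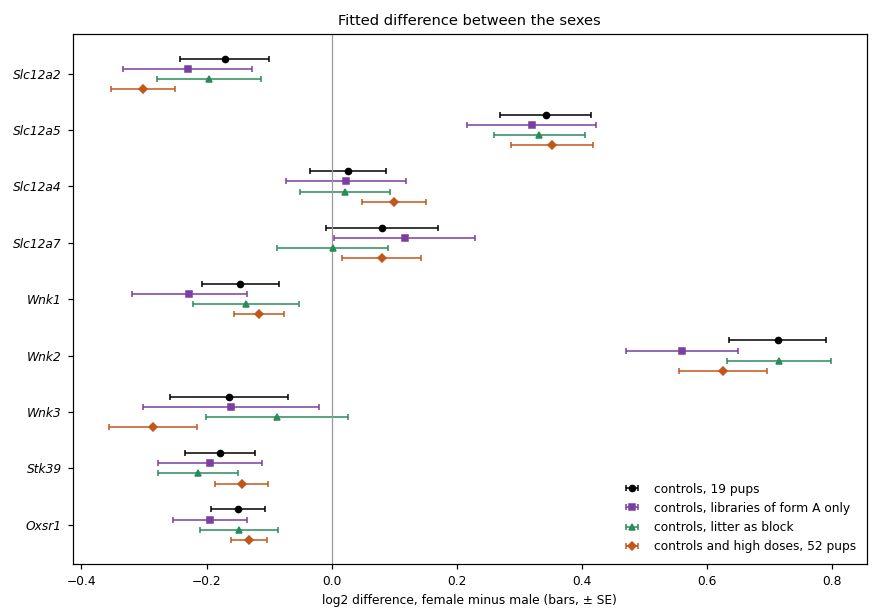
Fitted log2 difference of each gene, female minus male, with bars of 1 SE each way, in 4 fits: all 19 controls (black), control libraries of form A (purple), controls with litter as a block (green) and the 52 pups of controls and high doses (orange). The green fit holds the 14 pups of the 7 control litters with both sexes. Wnk2 stands from 0.56 to 0.72 and Slc12a5 from 0.32 to 0.35, to the right of 0 in all of these fits, and Slc12a2, Wnk1, Wnk3, Stk39 and Oxsr1 stand to the left.

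The sexes can also be set side by side within litters, since 18 litters (7 control and 11 high-dose) had pups of both sexes. Wnk2 was higher in the female in 18 of 18 litters, by 0.21 to 1.47 (log2 CPM, median 0.50). Slc12a5 was higher in the female in 16 litters and Slc12a2 lower in 17. Stk39, Wnk1 and Wnk3 were each lower in the female in 15 litters and Oxsr1 in 14. Slc12a4 was higher in the female in 8 litters and Slc12a7 in 9. Mean differences in control and high-dose litters were 0.69 and 0.55 for Wnk2 and 0.30 and 0.30 for Slc12a5. They were -0.23 and -0.45 for Slc12a2 and -0.11 and -0.49 for Wnk3. How often a gene kept 1 direction in every litter was not counted over all genes. With litter as a block 44.3% of all genes were called in these litters. The widest gap in Wnk2 was in Aro5 litter 120, where the female had 271.9 CPM and the 2 males had 99.2 and 97.1 CPM. The next widest were in control litter N3 (242.2 against 110.5 CPM) and CPF3 litter 38 (253.4 against 118.5 CPM). The female and male libraries of a litter may also differ in form and depth.

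On the log2 scale the sex difference of the Slc12a5/Slc12a2 ratio is that of Slc12a5 minus that of Slc12a2. In controls, females exceeded males by 0.50 in mean log2 ratio, with differences in mean log2 CPM of 0.30 in Slc12a5 and -0.20 in Slc12a2, and 60.3% thus came from Slc12a5. With only controls in the time window the ratio differed by 0.36, with 72.3% from Slc12a5. Over the 52 pups it differed by 0.65, with 49.4% from Slc12a5. These shares are of CPM, without the scaling and covariates of the fits, and they depend on that choice. The fitted difference over the 52 pups was larger in size in Slc12a5 than in Slc12a2.

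**Figure D3:**
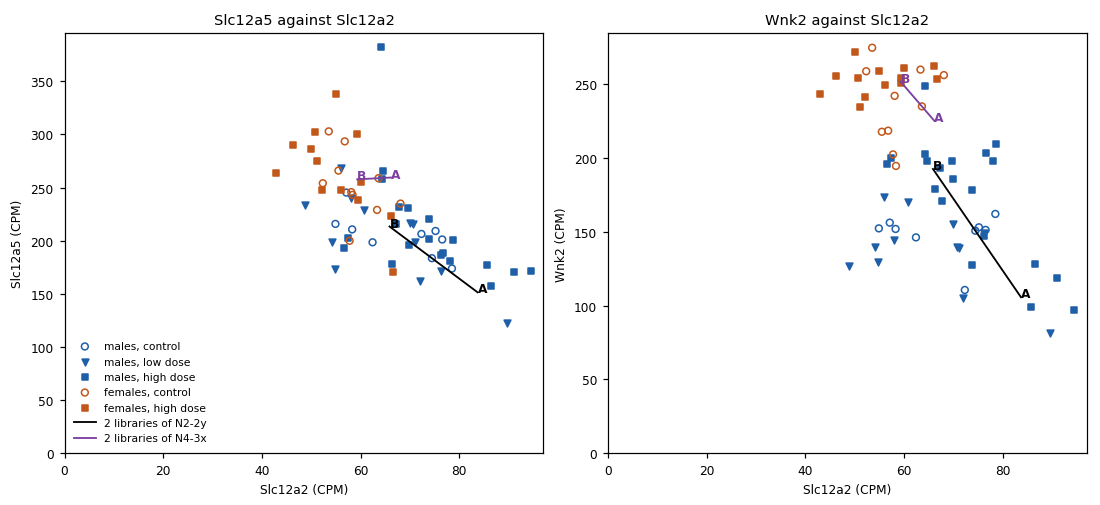
Slc12a5 (left) and Wnk2 (right) against Slc12a2, in CPM on linear axes from 0, for each pup, with males in blue, females in orange, open circles for controls, triangles for low doses and squares for high doses. The lines join the 2 libraries (A and B) of control male N2-2y (black) and control female N4-3x (purple). The N2-2y line runs from 105.6 to 192.6 CPM in Wnk2.

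No member passed the threshold in any of the 9 treated groups. Fitted differences ran from -0.31 to 0.30 on the log2 scale. In the 9 comparisons, 81 tests of members by edgeR's quasi-likelihood test gave 0 calls after Benjamini-Hochberg adjustment, against 0.0781% of all tests, and an unadjusted p under 0.05 was reached by 8 (9.88%), against 8.69% of all tests. Normal 95% intervals (log2 difference and its SE) ranged from -0.55 to 0.60 over all these tests, and differences of that size are not excluded. DESeq2 and every other alternative run gave 0 calls too. In Aro5 males with only pups in the time window, 4.96% of all genes were called and the members ran from -0.34 (Slc12a4, SE 0.12) to 0.52 (Wnk3, SE 0.16; edgeR's quasi-likelihood test, Benjamini-Hochberg adjusted p = 0.063). There the interval of Wnk3 reached from 0.20 to 0.83, and Slc12a2 was at 0.34 (SE 0.12; edgeR's quasi-likelihood test, Benjamini-Hochberg adjusted p = 0.098). Of the 6 Aro5 males 2 lay outside the window, as did 3 CONSC males. The siblings of litter 120, both inside it, had a mean of 54.4 CPM of Wnk3. The Aro5 males of litters 115 and 116 had 45.6 and 39.9 CPM, and the part of litter 120 was not tested. The summed neocortex markers (5 of 5) stood at 394 to 639.4 CPM in Aro5 males and at 204.9 to 510.2 CPM in control males, and their part in these values was not tested.

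Among the transporters, Slc12a4 was the member furthest toward a call. In Aro5 males it had 25.1 to 38.7 CPM (median 33.7), against 33.8 to 45.7 CPM in control males (median 41.6), so that the groups overlapped. The fitted difference was -0.29 (SE 0.096; edgeR's quasi-likelihood test, Benjamini-Hochberg adjusted p = 0.25), and 0.195% of all genes were called in that comparison. In CPF3 males it was -0.27 (28.7 to 40.3 CPM), with 0.159% of all genes called, and in BPA5 males -0.10, with 0.189% called. These comparisons share the 9 control males, and library form and high-dose treatment cannot be told apart in males. In females the same gene differed by 0.03 in Aro5, -0.16 in BPA5 and -0.10 in CPF3.

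Slc12a2 in Aro5 females stood at 42.9, 59.5, 52.1, 50.7 and 50 CPM, against 52.3 to 68.1 CPM in control females. Most of these pups lay below the control range, and the difference of -0.19 (SE 0.079) was not called by edgeR's quasi-likelihood test, with 0.0% of all genes called in Aro5 females. In Aro5 males Slc12a2 was at 0.15 (SE 0.1). The sex by Aro5 interaction for Slc12a2 was -0.34 (SE 0.13; edgeR's quasi-likelihood test, Benjamini-Hochberg adjusted p = 0.42, with 0.0984% of all genes called). With only pups in the time window it was -0.56 (SE 0.15) and passed the threshold (edgeR's quasi-likelihood test, Benjamini-Hochberg adjusted p = 0.038), in a fit that called 3.49% of all genes. The other members did not pass in that fit, with Wnk3 the nearest at -0.63 (edgeR's quasi-likelihood test, Benjamini-Hochberg adjusted p = 0.061). Among others, the window leaves out 2 of the 6 Aro5 males and the 3 control males with the highest Slc12a2. The Aro5 males kept include the siblings of litter 120, with a mean of 90.1 CPM of Slc12a2. Those of litters 115 and 116 had 69.7 and 67.3 CPM, and the part of litter 120 was not tested. Interactions with BPA5 and CPF3 gave no calls among the members, with 0.0405% and 0.0463% of all genes called.

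Slc12a5, the extruder in the ratio, moved from -0.20 in BPA0.5 males to 0.22 in BPA5 females. The highest pup of the whole set, BPA5 male 81-1y, had 382.1 CPM, while the other 6 BPA5 males had 157.1 to 265.9 CPM. Slc12a7 was at 13.7, 18.3, 19 and 24 CPM in CPF3 females, against 12.8 to 20.2 CPM in control females (0.27, SE 0.12), and was not called.

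Of the kinases, Wnk2 spread most among the high-dose males. In Aro5 males it was at 186 to 200.1 CPM in 4 pups and at 99.2 and 97.1 CPM in the siblings 120-1y and 120-2y. In BPA5 males it was at 178.3 to 203.7 CPM in 5 pups and at 127.5 and 127.9 CPM in the other 2. In CPF3 males it ranged from 118.5 to 248.7 CPM. Most of these form B libraries lay above the control males, which were at 110.5 to 162.1 CPM and almost all of form A. The fitted differences of Wnk2 from control males were 0.15 (Aro5), 0.26 (BPA5) and 0.30 (CPF3), with SEs of up to 0.16. Among control males only library B of N2-2y (192.6 CPM) has form B. With library form as a covariate, the fit therefore sets the high-dose males against that 1 library. There the differences were -0.22, -0.11 and -0.07. In BPA0.5 males, of form A like their controls, Wnk2 was at 105, 81.2, 139.9 and 139.7 CPM (-0.31, SE 0.12), below the control median in each pup and not called, with 0.0434% of all genes called. Wnk3, on the X chromosome, was at 0.28, 0.14 and 0.26 in males of Aro5, BPA5 and CPF3 (0.52 in Aro5 males in the time window) and at -0.12, 0.21 and 0.07 in the females. Wnk1 stayed within -0.11 and 0.13 in the 9 groups.

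SPAK and OSR1 differed by small amounts that pointed down in the high-dose males. In Aro5, BPA5 and CPF3 males Stk39 was at -0.09, -0.14 and -0.17, and Oxsr1 at -0.09, -0.10 and -0.10. None of these was called by edgeR's quasi-likelihood test. In low-dose males Oxsr1 stayed within -0.06 and 0.03, with 0.124% of all genes called in Aro0.5 and 0.0% in CPF1. In CPF3 females Oxsr1 was at 79 CPM in pup 43-3x and at 108.5 CPM or more in the others.

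**Figure D4:**
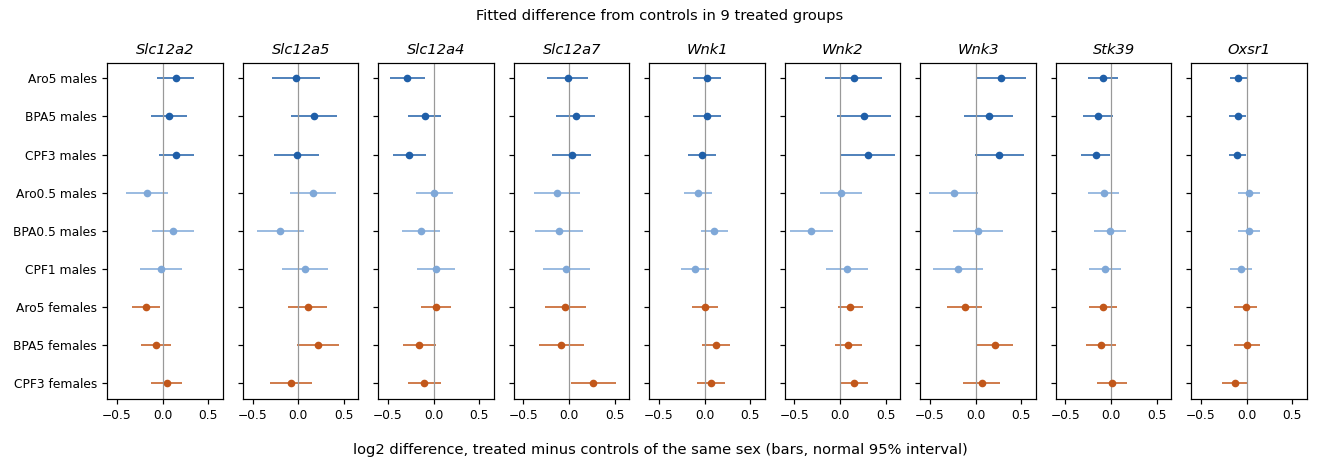
Fitted log2 difference of each gene from the controls of the same sex in the 9 treated groups, with high-dose males in dark blue, low-dose males in light blue and females in orange. Bars are normal 95% intervals, and all points lie between -0.31 and 0.30.

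The route of the controls made no called difference to any member. Between CONF and CONSC, 0 of 9 members were called in males (0.013% of all genes called) and 0 of 9 in females (0.0%). At an unadjusted p under 0.05 there were 0 members in males (0.988% of all genes) and 1 in females (4.29%), and DESeq2 called none. The 1 was Slc12a2 in females, at 56.8, 63.6, 68.1, 58.1 and 63.3 CPM in CONF and 55.5, 57.8, 58.4, 53.6 and 52.3 CPM in CONSC, a difference of 0.17 (SE 0.069).

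Other genes of chloride handling were listed with the members. In control pups, of 12 tested other SLC12 and kinase-pathway genes 2 were higher and 2 lower in females by edgeR's quasi-likelihood test, against 29.6% of all genes called, with a median difference of -0.03 against -0.02 over all genes. Slc12a9, a relative of the cotransporters, was higher by 0.54 (21.1 to 26.1 CPM in females, 12.4 to 19.1 CPM in males), and Klhl3, an adaptor of the ubiquitin ligase that degrades WNK kinases, by 0.50. Cul3, the scaffold of that ligase, was lower, at -0.20, as was Cab39l, which encodes a scaffold protein that activates SPAK and OSR1, at -0.25. Over the 52 pups Wnk4 (0.21) was also higher, and Klhl2 (-0.16) and Sgk1 (-0.17) were also lower.

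Of 12 regulators and partners of KCC2, 3 were higher and 2 lower in control females, again against 29.6% of all genes called, with a median of 0.00 against -0.02 over all genes. Egr4, a transcription factor known to act on Slc12a5, had the largest difference, 1.34 (SE 0.24; 2.07 to 5.9 CPM in females against 0.455 to 1.72 CPM in males, ranges that did not overlap, as for 6.07% of the genes with a mean of 1 CPM or more). Usf2, another factor of this gene, was higher by 0.42 and Arhgef7, a partner of KCC2 at spines, by 0.23. Epb41l1, of the membrane skeleton, was lower, at -0.16, as was the calpain Capn2, a protease, at -0.12. Over the 52 pups Usf1 (0.12) was also higher and Rest (-0.21) also lower, and Egr4 stood at 1.41 and Arhgef7 at 0.21. Of 15 tested genes of other chloride and bicarbonate transport, 2 were higher and 1 lower in control females (29.6% of all genes called), with a median of 0.09 against -0.02. These were the exchanger Slc4a3 (0.40), the volume-regulated channel subunit Lrrc8a (0.30) and the endosomal transporter Clcn3 (-0.16). Over the 52 pups 5 were higher and 4 lower, against 51.3% of all genes called, with Clcn6 (0.08), Clcn7 (0.16) and Slc4a8 (0.30) among the higher and Clcn4 (-0.23), Slc4a7 (-0.28) and Slc4a10 (-0.28) among the lower. No gene of these lists was called in a treated group, a route comparison or an interaction. The smallest unadjusted p values in treated groups belonged to Neto2 in Aro0.5 males (-0.46), Klhl3 in BPA0.5 males (-0.53) and Slc4a7 in CPF3 males (0.40).

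Summed markers of cell types were set beside the sex difference. The 6 neuronal markers summed to 5567 to 7792 CPM in control females and 6432 to 7142 CPM in control males, and the 5 astrocyte markers to 867.5 to 1158 and 841.1 to 1207 CPM. Endothelial markers (4 of 4) did not overlap, with 97.6 to 122.4 CPM in females and 74.9 to 95.2 CPM in males. Of single genes with a mean of 1 CPM or more, 6.07% did not overlap either. The share among sums of genes was not counted. Markers of dividing cells (3 of 3) were at 59.3 to 88.8 CPM in females and 72.3 to 99.7 CPM in males. Their part in the sex difference of the members was not tested.

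Across the 64 pups, the members varied together in part. These correlations describe pups that share library set, sex and litter, and rho is Spearman's, of log2 CPM. Slc12a5 and Slc12a2 ran in opposite directions (rho -0.68). Slc12a2 ran with Wnk3 (0.75) and Wnk1 (0.69), Wnk1 with Wnk3 (0.79), and Slc12a5 with Wnk2 (0.71). Among 17367 genes, the 5 most like Slc12a5 were Ache (0.95), Dnm1, Ptprn, Chga and Grin2d (0.92), and the 5 most like Slc12a2 were U2surp (0.91), Matr3, Zfp451, Suz12 and Wapal (0.90). Wnk2 was closest to Wiz and Arhgap33 (0.98 each), Wnk1 to Arhgap5 and FAM120C, Wnk3 to Phip and Ccdc50, Stk39 to Erlin2 and Cab39l, Oxsr1 to Yae1d1 and Tnfaip1, Slc12a4 to Cd82 and Cnp, and Slc12a7 to Wfikkn2 and Eps8l2.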

How the data were processed

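Per the labels, libraries were made with a stranded TruSeq mRNA kit. The values the authors deposited are raw counts per gene, from featureCounts on reads mapped by STAR to build Rnor_6.0. The labels name a NovaSeq and the methods a HiSeq instrument, and versions and the strand setting are not given in the sources used here, so that overlapping or antisense genes cannot be told apart. The submitters' processing notes also name kallisto. Depth ran from 10644138 to 86206550 counts per library, and the members had 117 to 25000 counts per pup.

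Counts of a pup's 2 libraries were summed. Groups came from the labels. Comparisons used edgeR 4.0.16 (quasi-likelihood test, TMM, filterByExpr by group, Benjamini-Hochberg over all genes tested, threshold 0.05) in R 4.3.3, with separate fits for males of the high and of the low doses, for females, for route in each sex, for control sexes, and for both sexes over 52 pups. The SE is the log2 difference divided by the square root of F. The script was tested on simulated data. Alternatives used DESeq2 1.42.0, its size factors, no filter, the time window (10.3 to 13.2), library form, same-route controls, only the groups compared, 1 pup per litter, separate libraries, each pup left out, and litter as a block. CPM and figures used Python 3.11.15, numpy 2.4.6, pandas 2.3.3, scipy 1.17.1 and matplotlib 3.10.9.

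The replicate block is the litter, which the labels give. Deviations of sister and brother from their group means correlated from -0.45 to 0.42 over 18 litters (median -0.17, above 0.1 in 4). The 9 members and the other lists were chosen with earlier results of these data known. Named genes are the members, listed genes with an adjusted p under 0.05 in any of 16 comparisons, otherwise the smallest p of a list, and the 5 (Slc12a5, Slc12a2) or 2 (others) genes most alike. Some listed genes are not reported here. Nothing says that pups of a group were independent beyond their litter. The main fits have no term for litter, and their p values set a difference against the spread between these pups.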

Additional observations from a re-analysis of the deposited data

Results flagged for a closer look

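In 117 sets of pups (each of the 9 genes in each of the 13 groups), 4 held a pup far from the rest of its group by Dixon's criterion, which chance gives in about 1 of 20 sets. Slc12a4 in Aro5 females was highest in pup 120-3x, at 49.5 CPM, with the next at 39.3 CPM. Wnk2 in CONF males was lowest in pup N3-4y, at 110.5 CPM, with the next at 146.2 CPM. Stk39 in CPF3 males was highest in pup 38-1y, at 118.4 CPM, with the next at 95.4 CPM. Oxsr1 in CPF3 females was lowest in pup 43-3x, at 79 CPM, with the next at 108.5 CPM.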

How the results depend on the processing

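In all 9 treated comparisons and both route comparisons the count of members called was 0 under every alternative run, also with each pup left out in turn (0 to 0). The count for the control sexes, 4, was 2 without a filter on low counts, 2 with libraries of form A alone, 3 in the time window (Stk39 lost), and 4 to 7 with 1 pup left out. The sex by Aro5 interaction went from 0 to 1 (Slc12a2) with only pups in the time window. With litter as the replicate block, 3 members were called in the control sexes (14 pups) and 7 over controls and high doses (38 pups). Only litters with both sexes were kept in these fits, and Oxsr1 in controls was the call lost. Of the values of single genes under alternatives, 2296 kept both direction and side of the threshold. In 142 the direction changed, with no call in the main fit or the alternative. With direction kept, 11 passed and 8 fell below the threshold, and none that was called turned its direction. Over all genes, the count called in control sexes (4829) ran from 1885 (form A) to 5175 (DESeq2). For high-dose males the fit with form as covariate has 1 form B control library and is left out of these ranges. In Aro5 males (32) the count ran from 15 (same-route controls) to 818 (time window). In BPA5 males (31) it ran from 8 to 63 and in CPF3 males (26) from 18 to 82. In Aro0.5 males (20) it ran from 0 to 269, in BPA0.5 males (7) from 0 to 39, and in the sex by Aro5 interaction (17) from 11 to 609. Causes were not tested. The members had at least 117 counts per pup, and SEs of 0.046 to 0.16 in the treated comparisons.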
